A study of Mus musculus with 8 samples.

Results

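The 10 genes of the core circadian clock were followed in sorted mouse T cells: the activators ARNTL (also called BMAL1) and CLOCK, the repressors PER1, PER2, PER3, CRY1, CRY2, NR1D1 and NR1D2, and the output gene DBP. They were chosen by their known place in the clock, with the host difference of ARNTL in these same libraries already seen, so their host differences are given as a description, with no p of their own, and counts of genes passing the fit across all genes stand beside them as context. All 10 stood among the 46625 genes of the count table, and all 10 were among the 14607 that passed the filter on low counts.

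The cells carry 8F10, a T cell receptor that recognises a peptide of insulin. Bone marrow of 8F10 donors (CD45.2, without their own TCR alpha chain), depleted of T and B cells, was given to CD45.1 hosts after irradiation below the lethal dose, and after 6 weeks the 8F10 T cells were sorted from inguinal lymph nodes. The 2 groups differ in the host. NOD mice develop autoimmune diabetes, and B16A hosts are known as NOD-background mice in which a form of insulin altered in its B chain replaces the native one; the strain label is NOD/ShiLtJ throughout. Each host gave 4 libraries, 1 in each of 4 labelled batches. Because irradiation was not lethal, hosts kept cells of their own, and the sort is what separates these from the donor cells. The sources used here give neither ages, nor the number of animals behind a library, nor the clock time of the sort.

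Libraries of batches 1 to 3 held 4896593 to 6137666 reads counted in genes, and the batch 4 libraries held 28301805 (NOD) and 28094237 (B16A). Batch 4 also stood apart in composition, with 19751 and 20723 genes detected against 29729 to 33175 elsewhere, so results are given with and without it. The sex-linked genes set batch 1 apart: XIST stood at 1039 and 1207 CPM (counts scaled to the TMM-adjusted size of each library) there and at 0.314 to 33.7 elsewhere, and KDM5D at 0.516 and 0.152 CPM there against 78.8 to 107. T cell identity was plain in all 8 libraries, with the 6 CD4 T cell markers summing to 4070 to 13300 CPM. CD8B1 was present at 62.6 to 186 CPM, whereas CD8A did not exceed 3.56 CPM. B cell markers summed to 2.02 to 16.6 CPM in NOD and 1.68 to 8.58 in B16A libraries, and erythroid markers to at most 6.2 CPM. Myeloid and dendritic cell markers summed to 79 to 121 and 54.5 to 132 CPM, NK cell markers to 3.1 to 19.6 and 4.41 to 41.5, and stromal and endothelial markers, nearly all PECAM1, to 288 to 371 and 271 to 410. Across batches, B cell markers summed to 4.11 to 16.6 CPM in batches 1 to 3 and 1.68 to 2.02 in batch 4. NK cell markers summed to 3.1 to 8.58 and 19.6 to 41.5. The batch 4 NK sum was nearly all KLRD1, at 19.6 and 41.1 CPM. There KLRB1C was at 0 in both libraries and NCR1 at 0 and 0.461 CPM. The myeloid and dendritic list summed to 54.5 to 88.7 CPM in batches 1 to 3 and 121 to 132 in batch 4. CST3 made up nearly all of the batch 4 sum, at 120 and 130 CPM. The rest of that list was lower in batch 4 than in any other batch, ITGAX and CD14 being at 0 in both libraries. Between hosts no marker gene passed over all 8 libraries, and TRBC1, a constant chain of the T cell receptor, passed within batches 1 to 3 in the fit with a batch term (log2 fold change 0.69, NOD over B16A, adjusted p = 0.0472 by edgeR's quasi-likelihood test).

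The clock is a feedback loop of transcription. ARNTL and CLOCK bind E-box sequences as a pair and switch on the PER and CRY genes, whose proteins return to the nucleus and block the pair. A second loop runs through NR1D1 and NR1D2 (REV-ERB alpha and beta), which repress ARNTL from elements that the ROR receptors use to activate it, and DBP drives genes through D-boxes. In a cell with a running clock, the transcripts of ARNTL and of the REV-ERB, PER and DBP genes peak at different times of day. Lymphocytes have such clocks, and PER1 is also known as a gene that signals can switch on directly and fast, as they do immediate early genes.

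Promoter sequences of some of the clock genes hold these elements. RefSeq windows of 300 bases (250 before and 50 after a start site, GRCm38.p6) were found for 9 of the 10 genes, 13 windows in all. Both strands were searched for the E-box CACGTG, the D-box TTATGTAA, the REV-ERB and ROR core TAGGTCA and the cyclic AMP response element TGACGTCA. The 4 genes shown are those on which the results turn and whose windows hold a motif, in capitals: PER1 and CRY1 an E-box, PER3 a pair of D-boxes, and ARNTL the REV-ERB and ROR core.
PER1: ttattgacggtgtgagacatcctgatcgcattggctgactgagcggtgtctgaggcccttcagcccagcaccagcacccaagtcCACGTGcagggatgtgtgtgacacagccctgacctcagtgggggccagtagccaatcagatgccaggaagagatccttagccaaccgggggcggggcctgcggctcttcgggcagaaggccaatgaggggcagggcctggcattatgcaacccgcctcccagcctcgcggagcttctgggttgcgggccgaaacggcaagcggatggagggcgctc
CRY1: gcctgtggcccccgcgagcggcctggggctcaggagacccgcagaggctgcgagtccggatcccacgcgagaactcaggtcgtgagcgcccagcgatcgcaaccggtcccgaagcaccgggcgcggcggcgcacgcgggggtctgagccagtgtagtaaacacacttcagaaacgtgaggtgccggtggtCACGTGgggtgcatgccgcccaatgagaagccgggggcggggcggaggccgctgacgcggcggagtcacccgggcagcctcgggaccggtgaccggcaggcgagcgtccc
PER3: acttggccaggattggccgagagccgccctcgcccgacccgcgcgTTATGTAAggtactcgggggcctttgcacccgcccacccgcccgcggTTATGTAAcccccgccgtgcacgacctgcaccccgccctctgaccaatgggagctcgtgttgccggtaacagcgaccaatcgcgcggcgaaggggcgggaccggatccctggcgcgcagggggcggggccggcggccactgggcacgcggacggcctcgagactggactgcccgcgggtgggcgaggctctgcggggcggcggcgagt
ARNTL: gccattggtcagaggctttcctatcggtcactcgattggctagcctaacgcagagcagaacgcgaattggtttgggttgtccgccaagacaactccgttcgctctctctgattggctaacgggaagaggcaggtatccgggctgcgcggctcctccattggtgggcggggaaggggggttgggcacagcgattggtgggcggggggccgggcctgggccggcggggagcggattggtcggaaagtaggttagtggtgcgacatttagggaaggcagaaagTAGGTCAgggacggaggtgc
The PER1 window lies at chr11:69098699-69098998 on the plus strand, with its E-box starting at base 85 from the window's 5′ end. The CRY1 window lies at chr10:85185005-85185304 on the minus strand (E-box at base 191), and the PER3 window at chr4:151044616-151044915 on the minus strand (D-boxes at bases 46 and 93). The ARNTL window lies at chr7:113207261-113207560 on the plus strand, with the core at base 281, past the start site. Of all 32851 windows of this length, 7.15% held the E-box, 0.938% the D-box, 2.61% the REV-ERB and ROR core and 1.79% the cyclic AMP response element, which no clock gene's window held. The windows of CLOCK, CRY2, DBP, NR1D1 and NR1D2 held none of these motifs, nor did another window each of PER1 and ARNTL. A match of letters is a description and not a site of binding.

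Per length, PER1 was the most abundant clock transcript. Its level was 12.2 CPM per kilobase of exon (median of 8 libraries, range 8.07 to 23.1), and no library of PER1 fell into the range of CLOCK, at 4.76 (3.42 to 5.64). From CLOCK downwards every neighbour in the order overlapped the next: CRY1 (median 2.97), CRY2 (2.87), NR1D2 (2.77), ARNTL (2.72), NR1D1 (2.65), DBP (2.11), PER2 (1.55) and PER3 (0.604 CPM per kilobase, range 0.145 to 1.28). In batches 1 to 3 alone the order below CLOCK was another. There CLOCK ranged from 4.02 to 5.59 and CRY1, with a median of 2.68, only from 1.68 to 3.08. NR1D1 came next after CLOCK and overlapped it, with a median of 3.23 (1.65 to 4.44). Exon lengths came from GENCODE vM21 on the same assembly as mm10, and the counting of the study may have used others.

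The first question was whether the clock differed between T cells parked in NOD and in B16A hosts, and whether its activating and repressing arms moved in opposite directions. ARNTL was lower in NOD than in B16A hosts in all 4 batches, and PER2, a repressor, was lower in NOD in all 4 batches too. CLOCK, the partner of ARNTL, was not. CRY2 was slightly higher in NOD in all 4 batches, and the remaining repressors and DBP differed in sign between batches. No clock gene, and no gene of the 14607 tested (0%), passed an adjusted p of 0.05 between hosts by edgeR's quasi-likelihood test without a batch term. With batch as a term the share was again 0%. At an unadjusted p under 0.05 there were 34 genes without and 857 with the batch term. Within batches 1 to 3 alone and with the batch term, 0.204% of 15716 genes passed, 32 in number, with no clock gene among them.

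ARNTL (chr7:113207465-113314126, mm10, plus strand) stood at 15.3, 16.1, 17.0 and 17.4 CPM in the NOD libraries of batches 1 to 4 and at 31.7, 37.0, 23.5 and 25.8 CPM in the B16A libraries. Every NOD library lay below every B16A library, and the NOD values were close together where the B16A values were spread. Their means were 16.5 ± 0.946 (SD, n = 4) and 29.5 ± 6.07 (SD, n = 4). The log2 fold change of ARNTL, NOD over B16A, was -0.84 (SE 0.25) without and -0.81 (SE 0.209) with the batch term, and -0.90 (SE 0.215) in batches 1 to 3 with it. By batch the log2 ratios were -1.04, -1.19, -0.46 and -0.56. Of all genes tested, 0.39% (57) had all NOD libraries below all B16A libraries, ARNTL being the only clock gene among them, and 0.205% (30) had them all above, with no clock gene. Since ARNTL was selected on this contrast, nothing is read from its place there. In bulk RNA, fewer cells expressing a gene and less RNA per cell cannot be told apart.

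CLOCK (chr5:76209868-76304792, minus strand) showed no such pattern. It stood at 68.3, 66.2, 55.2 and 46.9 CPM in NOD and 56.5, 76.8, 64.4 and 77.5 CPM in B16A libraries, and the ranges overlapped. Its log2 fold change was -0.22 (SE 0.243), with batch ratios of 0.27, -0.21, -0.22 and -0.72, and in batches 1 to 3 it was -0.05 (SE 0.165, with the batch term). The difference leaned on batch 4.

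PER2, a repressor of the ARNTL and CLOCK pair (chr1:91415982-91459324, minus strand), stood at 10.7, 7.11, 7.52 and 2.51 CPM in NOD and 18.0, 20.3, 13.8 and 3.98 CPM in B16A libraries. Both batch 4 values were the lowest of their host, so the hosts' ranges overlapped over all 8 libraries. Within batches 1 to 3 every NOD value lay below every B16A value. The share of all genes with that pattern in these batches was not counted, so nothing is read from it. The log2 fold change of PER2 was -1.01 (SE 0.598) without the batch term, -0.94 (SE 0.291) with it and -1.03 (SE 0.273) in batches 1 to 3. The batch ratios were -0.74, -1.49, -0.86 and -0.63. The reads behind them numbered 38 to 62 in NOD and 85 to 130 in B16A libraries.

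PER1, the most abundant of the family (chr11:69095217-69109960, plus strand), stood at 92.9, 58.7, 45.6 and 104 CPM in NOD and 130, 74.3, 45.5 and 63.0 CPM in B16A libraries. It was lower in NOD in batches 1 and 2, level in batch 3 and higher in batch 4, so the ratios of -0.49, -0.34, 0.00 and 0.72 left a log2 fold change of -0.05 (SE 0.408). PER3 (chr4:151003652-151044665, minus strand) stood at 4.13, 12.3, 6.37 and 1.39 CPM in NOD and 5.94, 10.9, 5.66 and 1.72 CPM in B16A libraries. The hosts followed each other from batch to batch, and the log2 fold change was 0.00 (SE 0.757), or -0.61 without the NOD and 0.44 without the B16A library of batch 2.

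CRY1, which acts with PER proteins in repression (chr10:85131700-85185064, minus strand), stood at 9.81, 7.48, 10.3 and 23.5 CPM in NOD and 10.1, 5.62, 8.09 and 36.6 CPM in B16A libraries. Its log2 fold change was -0.24 (SE 0.657) over 8 libraries and 0.24 (SE 0.325) in batches 1 to 3 with the batch term, so its sign came from batch 4. Without the NOD library of batch 4 it was -0.77, and without the B16A library 0.72. CRY2 (chr2:92403646-92434043, minus strand) stood at 17.0, 29.4, 17.3 and 21.2 CPM in NOD and 16.4, 29.0, 16.8 and 18.9 CPM in B16A libraries. CRY2 was higher in NOD in all 4 batches, by log2 ratios of 0.05, 0.02, 0.04 and 0.16. Each was smaller than the SE of its log2 fold change with the batch term (0.07, SE 0.198). Without the batch term that value was 0.06 (SE 0.312). Batch 2 stood above the other batches in both hosts by more than the hosts differed.

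NR1D1 (chr11:98767932-98775333, minus strand) stood at 7.06, 13.7, 5.07 and 0.852 CPM in NOD and 10.7, 11.6, 9.22 and 0.126 CPM in B16A libraries. The batch ratios of -0.58, 0.24, -0.84 and 1.71 had no common sign, and the last rests on 19 reads against 3. Its log2 fold change was -0.25 (SE 1.13) without and 0.09 (SE 0.455) with the batch term, and -0.38 (SE 0.318) in batches 1 to 3 with it. NR1D2, its paralogue (chr14:18204054-18239127, minus strand), stood at 11.7, 8.42, 15.9 and 29.4 CPM in NOD and 19.2, 12.6, 14.1 and 41.7 CPM in B16A libraries. It was lower in NOD in 3 of 4 batches, with a log2 fold change of -0.42 (SE 0.523). Without the NOD library of batch 4 the value was -0.91, and without the B16A library of batch 4 it was 0.13.

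DBP, the output gene (chr7:45705088-45710203, plus strand), stood at 7.57, 7.11, 4.41 and 4.35 CPM in NOD and 7.92, 7.96, 5.50 and 1.55 CPM in B16A libraries. The hosts were close in batches 1 to 3 (log2 ratios -0.06, -0.16 and -0.31) and apart in batch 4 (1.38, from 97 reads against 37). Its log2 fold change was 0.04 (SE 0.570). DBP shares 539 exon bases (18.0%) with Sphk2 on the other strand, and NR1D1 shares 263 (8.55%) with Thra, the gene of a thyroid hormone receptor. CRY2 shares 295 bases (4.67%) with D930015M05Rik and ARNTL 33 (0.439%) with Gm45355, also on the other strand. As the sources used here do not say how strand was used in counting, reads of these stretches are uncertain.

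**Figure D1:**
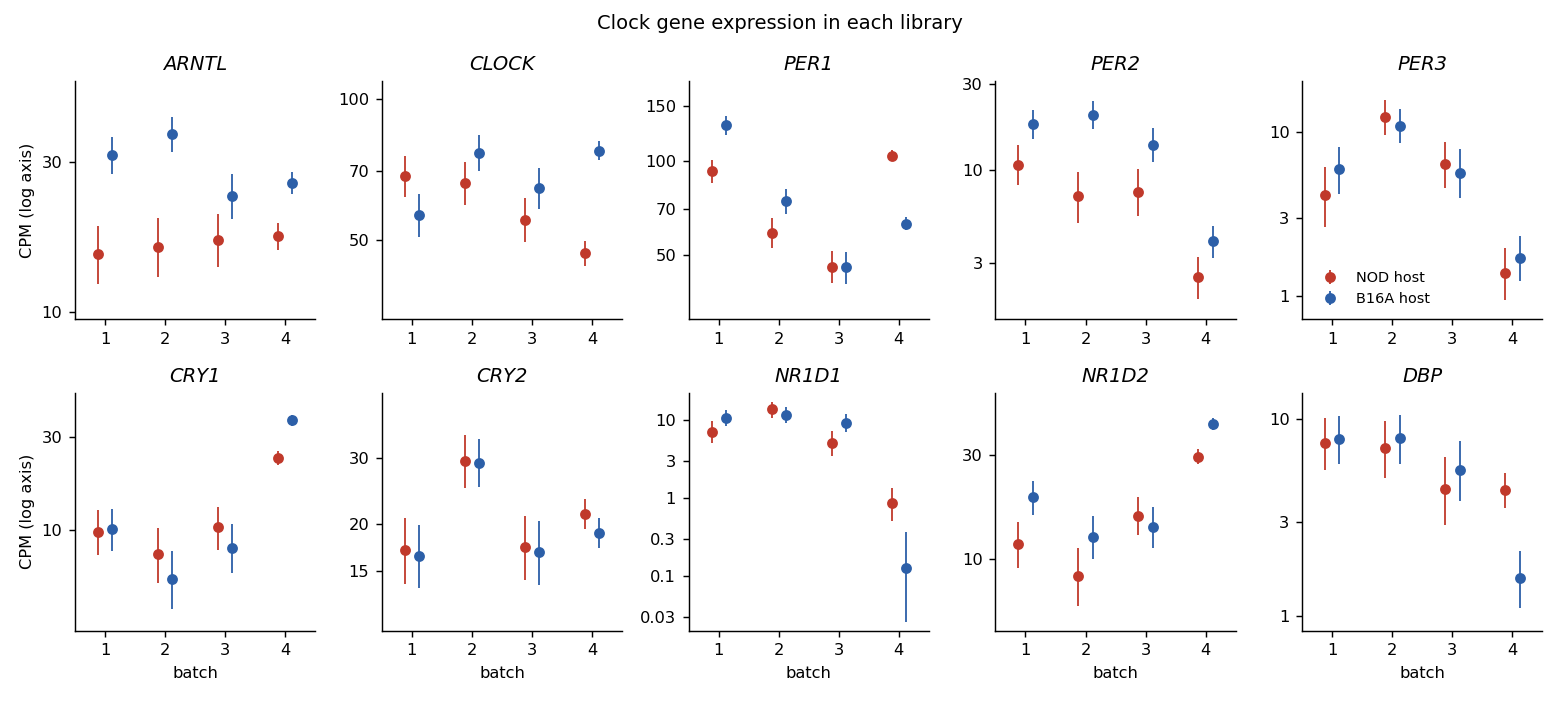
Expression of the 10 clock genes in each library: CPM on a log axis against batch, NOD hosts in red and B16A hosts in blue, with bars for the 95% counting interval (Poisson). ARNTL shows 4 NOD points from 15.3 to 17.4 CPM below 4 B16A points from 23.5 to 37.0, and NR1D1 shows both batch 4 points below 1 CPM.

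The arms did not move as mirror images. The median log2 fold change of the activators was -0.53, and that of the 8 repressor and output genes was -0.15 (-0.02 with the batch term), beside 0.03 for all genes tested. Both activators and 6 of the 8 repressor and output genes were below 0, as were 6698 of all 14607 genes. By batch, the activators' median ratio was -0.38, -0.70, -0.34 and -0.64, and that of the repressor and output genes was -0.50, -0.07, 0.02 and -0.06. In batch 1, 7 of 8 repressor and output genes were below 0 and 1 of 2 activators was, ARNTL; in the other batches 3 or 4 of 8 and both activators were. The activator median is the midpoint of 2 genes, one of which was selected on this contrast.

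The genes with the same sign in all batches were 2 lower in NOD, ARNTL and PER2, where 6.85% of all genes tested had this pattern, and 1 higher, CRY2, where 7.43% did. Because the contrast was known when the genes were chosen, these counts are a description. ARNTL and PER2 are placed on opposite arms of the loop, and both were lower in NOD.

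**Figure D2:**
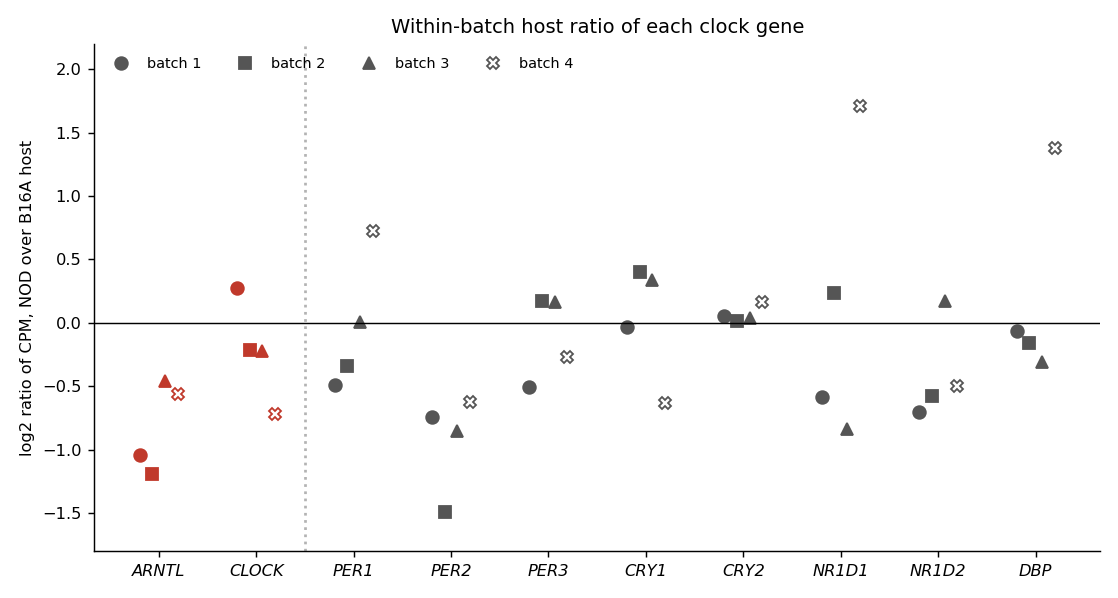
Ratio of NOD to B16A host (log2 of CPM) for each clock gene within each of the 4 batches, with the activators in red to the left of the dotted line and batch 4 as crosses. All 4 marks lie below 0 for ARNTL and PER2, and the marks of the other genes either straddle 0 or, for CRY2, sit from 0.02 to 0.16 above it.

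Genes whose level followed that of ARNTL between hosts were sought among 10731 genes with a mean of at least 4 CPM, by Pearson's r of log2 CPM centred within each batch. With 4 free values such an r is loose, and 73 genes exceeded 0.95. Among the first 5 were FOXO1 (r = 0.996), a transcription factor of resting T cells, RHBDD2 (0.995), CDON (0.995) and TXK (0.991), a kinase of the T cell receptor pathway. Their ratios were smaller than those of ARNTL, FOXO1 for example having -0.44, -0.51, -0.27 and -0.23 by batch. Of the clock genes PER2 came closest to ARNTL, with r = 0.959 and rank 61, and CRY2 was farthest, at -0.60. Centred in this way, r compares only the within-batch host ratios, so genes lower in NOD in every batch tend to score high. As ARNTL was selected on this contrast, the ranks are a description. The points share batch and depth, and no p is given.

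The labelled batches allowed a comparison that the choice of the genes had not used. Over 4 batches, with host as a term, 6 of the 10 clock genes passed an adjusted p of 0.05 by edgeR's quasi-likelihood test, where 62.6% of all genes tested passed. A count of 6 of 10 is near this background and is no result about the clock. The 6 genes and their values follow as a description.

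NR1D1, PER2 and PER3 fell in batch 4, and CRY1 and NR1D2 rose. NR1D1 had 5.07 to 13.7 CPM in batches 1 to 3 and 0.852 and 0.126 in batch 4, a log2 difference of -4.00 from the mean of the other batches (adjusted p = 0.000736). PER3 was lower by 4.15-fold (log2 difference -2.05, adjusted p = 0.00351) and PER2 by 3.61-fold (-1.85, adjusted p = 0.00238). In all 3 genes both batch 4 libraries were below the other 6.

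CRY1 was 3.44-fold higher in batch 4 (log2 difference 1.78, adjusted p = 0.000367), with 23.5 and 36.6 CPM against 5.62 to 10.3. NR1D2 was 2.62-fold higher (1.39, adjusted p = 0.000899), with 29.4 and 41.7 CPM against 8.42 to 19.2. The REV-ERB paralogues moved in opposite directions, and so did CRY1 against PER2 and PER3. Of all genes tested, 40.4% had both batch 4 libraries below the other 6 and 31.8% had both above. Nothing about the clock is read from these directions. PER1 passed as well (adjusted p = 0.00489), with its spread among batches 1 to 3 and a log2 difference of only 0.23 between batch 4 and their mean.

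DBP had a log2 difference of -1.27 and both batch 4 libraries below the other 6, without passing the test (adjusted p = 0.165). CRY2 (adjusted p = 0.0601), CLOCK (0.776) and ARNTL (0.806) did not pass either, with log2 differences of -0.02, -0.09 and -0.06. Both batch 4 libraries lay below the other 6 in 4 clock genes, PER2, PER3, NR1D1 and DBP, against 40.4% of all genes tested. They lay above in CRY1 and NR1D2, against 31.8%.

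These differences depend on how the libraries are scaled. Batch 4 moved the median of all genes by -0.27 (log2) under TMM, -0.93 under upper-quartile factors and -0.41 under DESeq2 size factors. Relative to that median the clock genes hardly depended on the scaling: NR1D1 was at -3.74, -3.64 and -3.71, PER3 at -1.79, -1.76 and -1.78, PER2 at -1.59, -1.58 and -1.58, CRY1 at 2.05, 2.04 and 2.05, and NR1D2 at 1.66, 1.65 and 1.66. PER1 lay 0.49, 0.48 and 0.49 above the median, although its unadjusted difference turned to -0.45 under upper-quartile factors. Under those factors 8 clock genes passed, CLOCK (adjusted p = 0.0228), CRY2 (0.00505) and DBP (0.0341) among them, and NR1D2 no longer did (0.0581). DESeq2 size factors gave 7, adding CRY2 (0.0395).

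**Figure D3:**
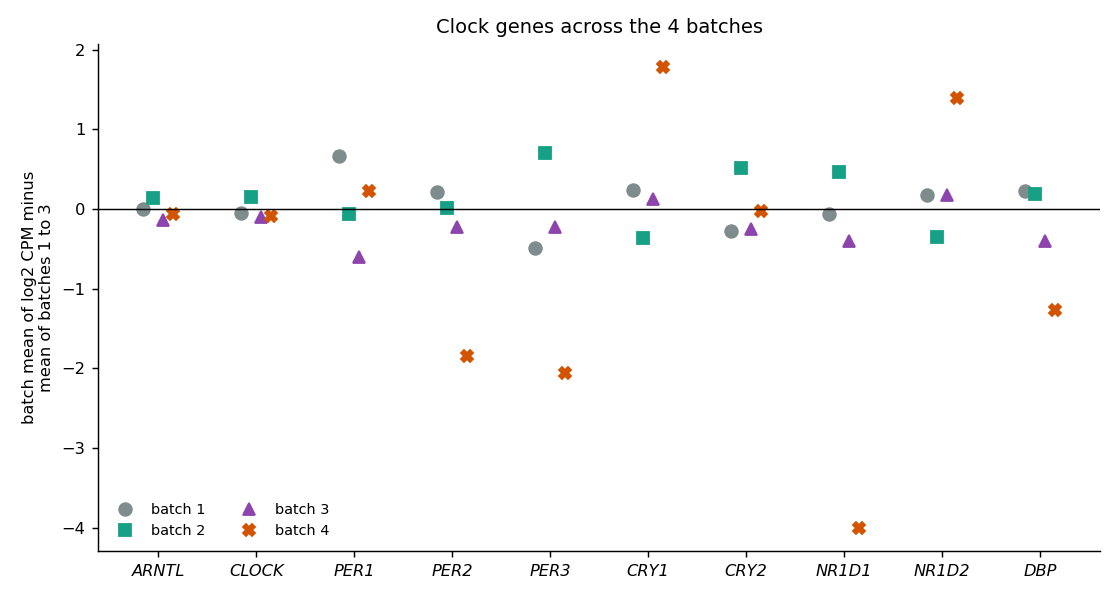
Batch mean of log2 CPM minus the mean of batches 1 to 3, for each clock gene, with 1 mark per batch. The batch 4 marks lie farthest below 0 for NR1D1 (-4.00), PER3 (-2.05) and PER2 (-1.85) and farthest above it for CRY1 (1.78) and NR1D2 (1.39), while PER1 has the widest spread among batches 1 to 3 (1.27).

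Other transcripts moved with batch 4. The 5 glucocorticoid-induced genes all passed the 4-batch test, 4 higher and 1 lower in batch 4 (62.6% of all genes passed), and summed to 287 to 621 CPM in batches 1 to 3 and 2420 to 5490 CPM in batch 4. TSC22D3, a glucocorticoid-induced gene of T cells, had batch means of 359, 266, 308 and 3608 CPM. It made up most of the batch 4 sum, at 5112 CPM in the NOD and 2104 CPM in the B16A library. The others that rose did so by 2.09 to 3.63-fold, and ZBTB16 was at 0 CPM in both batch 4 libraries. Of the 10 immediate early genes 9 passed, 7 higher and 2 lower, and their sum went from 335 to 1550 CPM in batches 1 to 3 to 2470 to 3670 CPM in batch 4. CD69, an early marker of activation, had 4781 and 3734 CPM in batch 4, where no library of the other batches exceeded 357 CPM. The depth, the number of detected genes and the immune markers given above differed there as well, and the part of each of these in the clock genes' differences was not tested.

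Without batch 4, PER1 was the 1 clock gene of 10 that differed among batches 1 to 3, where 2.79% of 15716 genes tested (438) passed. Its batch means were 112, 66.5 and 45.5 CPM, a 2.41-fold span (log2 1.27, adjusted p = 0.000422 by edgeR's quasi-likelihood test with host as a term). In both hosts batch 1 was highest and batch 3 lowest, at 92.9, 58.7 and 45.6 CPM in NOD and 130, 74.3 and 45.5 CPM in B16A libraries. The call rested on the B16A library of batch 1: without it the adjusted p was 0.109, and without the NOD library of batch 1 it was 0.0108. The other 9 clock genes had adjusted p-values from 0.109 (CRY2) to 0.854 (ARNTL), PER2 and PER3 standing at 0.767 and 0.214.

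Of the 10 immediate early genes listed, 7 passed among batches 1 to 3, where 2.79% of all 15716 genes tested did. Each of these 7 had its highest mean in batch 1 and its lowest in batch 3. The list's summed level had batch means of 1440, 756 and 396 CPM. DUSP1, a phosphatase that switches off MAP kinases, had batch means of 183, 78.7 and 26.8 CPM (6.75-fold, adjusted p = 6.18e-08). FOS, a subunit of the AP-1 factor, had 234, 142 and 19.1 CPM (12.3-fold, adjusted p = 0.00933), and its partner JUN had 176, 106 and 32.1 CPM (5.45-fold, adjusted p = 8.81e-05). FOSB had the widest span, 201, 40.0 and 7.08 CPM (24.3-fold, adjusted p = 0.00707). EGR1 had the narrowest span of the 7, 417, 300 and 239 CPM (1.82-fold, adjusted p = 0.0251). PER1 had the same order of batches as these genes. The share of all genes with that order was not counted, so nothing is read from it. The 2.41-fold span of PER1 lay above that of EGR1 and below those of the others, which were 4.39 to 24.3-fold.

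None of the 5 glucocorticoid-induced genes passed among batches 1 to 3, with TSC22D3 at an adjusted p of 0.712. Batch 1 is also the batch in which XIST was high and KDM5D near 0, so batch and the sex of the cells cannot be told apart in its values. In batch 4, where DUSP1 and JUNB had their highest batch means (608 and 406 CPM), PER1 stood at 104 CPM in the NOD library and at 63.0 CPM in the B16A library, within its range of 45.5 to 130 CPM in batches 1 to 3. Whether the immediate early genes and PER1 share a source of variation was not tested.

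**Figure D4:**
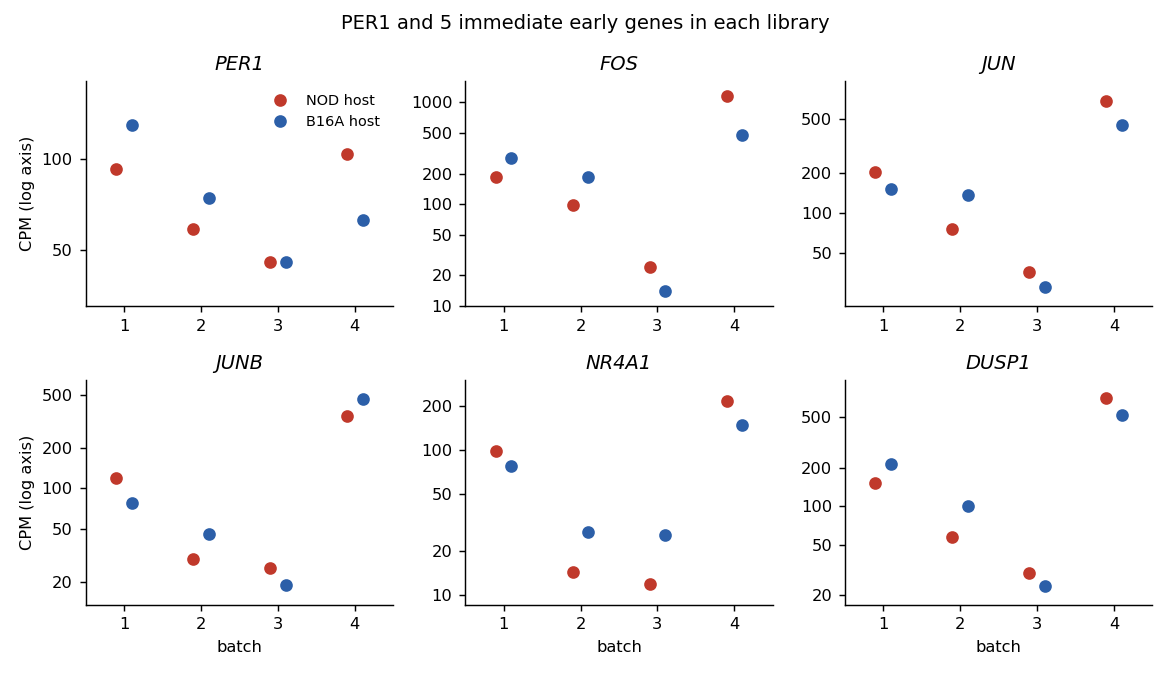
CPM of PER1 and of FOS, JUN, JUNB, NR4A1 and DUSP1 in each library, on log axes against batch, NOD hosts in red and B16A hosts in blue. PER1 goes from 92.9 and 130 CPM in batch 1 to 45.6 and 45.5 CPM in batch 3, and the batch 4 points of DUSP1, JUN and JUNB stand above all others while those of PER1 do not.

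The wider clock was followed in 32 further genes, grouped as activator paralogues and ROR receptors, outputs and modulators, kinases and ubiquitin ligases, and co-repressors and cofactors, of which 31 were tested. None passed between hosts in either fit, where 0% of all genes did. Their median log2 fold change was -0.06, with 19 of 31 below 0. NOD was lower in all 4 batches for RORA and EP300, where 6.85% of all genes tested had this pattern. NOD was higher in all 4 for TEF, FBXW11 and NONO, where 7.43% did. Counts of 2 and 3 of 31 are near these shares and are no result about the wider clock. RORA, which competes with the REV-ERB proteins for shared elements, stood at 37.7, 43.2, 27.8 and 29.7 CPM in NOD and 50.5, 44.9, 35.6 and 51.2 CPM in B16A libraries. The hosts overlapped in RORA (log2 fold change -0.40, SE 0.263). TEF, a D-box factor related to DBP, stood at 30.8, 39.6, 25.0 and 17.9 CPM in NOD and 25.3, 24.5, 21.2 and 13.9 CPM in B16A libraries, also overlapping (0.42, SE 0.335).

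Over the 4 batches 17 of these 31 genes (54.8%) passed, 10 higher and 7 lower in batch 4, against the background of 62.6% given above. That share is below the background. The counts by group and the genes named below are a description and no result about the wider clock. Among batches 1 to 3 none of the 31 passed. Of the kinases and ubiquitin ligases 4 of 8 passed: GSK3B, a kinase that acts on clock proteins, rose 5.58-fold in batch 4 (adjusted p = 1.18e-08), and CSNK1A1 rose 1.83-fold (adjusted p = 0.000606). CSNK1D, the casein kinase that marks PER proteins for breakdown, fell 2.10-fold, from batch means of 130, 120 and 132 CPM to 60.2 CPM (adjusted p = 0.000542).

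Of the outputs and modulators 5 of 9 passed. CIART, a repressor of the ARNTL and CLOCK pair, rose from batch means of 3.23, 2.34 and 1.54 CPM to 9.40 CPM (3.89-fold, adjusted p = 0.00907). NAMPT, an enzyme of NAD synthesis under clock control, rose 3.14-fold (adjusted p = 1.24e-05), USP2 rose 1.75-fold (adjusted p = 0.0273), and TEF fell 1.72-fold (adjusted p = 0.0235). These changes were not in 1 direction within the group.

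Of the 5 activator paralogues and ROR receptors 2 passed, both lower in batch 4, among them RORB (4.57, 5.99 and 5.62 CPM to 0.0867 CPM, adjusted p = 0.000318). Of the 9 co-repressors and cofactors 6 passed, 5 of them higher. SIRT1, a deacetylase that binds the ARNTL and CLOCK pair, rose 3.41-fold (adjusted p = 1.1e-05), TIMELESS rose 3.01-fold (adjusted p = 0.00135) and SFPQ, found in PER complexes, rose 2.23-fold (adjusted p = 0.000167). EP300, a co-activator with acetylase activity, was the 1 that fell, by 3.61-fold (adjusted p = 3.7e-06).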

How the data were processed

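Per the labels' protocols, cDNA came from the SeqPlex amplification kit and reads were single, 50 bases long. The authors deposited 1 table of raw counts per gene, whole numbers with no normalization. The submitters' processing notes name STAR, HTSeq, DESeq2 and mm10. Versions, annotation and strand setting: not given in the sources used here.

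Groups and batches come from the labels. Nothing in the labels says that a host's libraries came from separate animals, and p-values therefore measure only how these samples vary, which may be technical. The replicate number is a labelled batch and so pairs the libraries. Deviations from the host means, compared across genes as a check, had r = 0.625, 0.702, 0.611 and 0.906 between hosts of the same batch. Unlike batches among 1 to 3 had r = 0.465 to 0.741, so the check sets only batch 4 apart and the pairing rests on the labels. No library repeated another: chi-square over its degrees of freedom was at least 8.54 for each pair. The clock genes and lists, and the comparisons, were chosen with earlier results of these data known.

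Counts were tested in R 4.3.3 with edgeR 4.0.16 (quasi-likelihood, robust, filterByExpr, TMM), Benjamini-Hochberg adjusted over 14607 genes (15716 in batches 1 to 3). The fits compared hosts without and with batch as a term, and batches with host as a term. The residual degrees of freedom were 6, 3 and, in batches 1 to 3, 2. Standard errors derive from the F statistic, CPM from TMM-adjusted library sizes, and a prior count of 2 was added for log2 CPM. Counting intervals are exact Poisson at 95% and cover counting error only. Tests were tried on simulated counts first. Other normalizations, filters, DESeq2 1.42.0, and fits without batch 4 or without each library were alternatives. Besides the 10 clock genes, named genes of each other list are up to 4 passing ones with the largest change and a mean of at least 4 CPM (else the 2 with the smallest p), the 5 genes most like ARNTL (1 of them is not reported here), and whole marker lists. CD69 and JUNB in batch 4, EGR1 and the sex-linked genes were named outside this rule, after their values were seen, as were genes with 1 sign in all batches.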

Additional observations from a re-analysis of the deposited data

Results flagged for a closer look

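NR1D1 in the B16A hosts had 1 library far from the others. The batch 4 library stood at 0.126 CPM (3 reads) against 9.22 to 11.6 CPM in the other 3. On log2 CPM, the only scale examined, where low values are spread apart, the gap to its nearest neighbour was 0.939 of the whole range. This was 1 of 20 groups examined in this way, and chance alone gives about 1 in 20. The NOD library of batch 4 was likewise the lowest of its host, at 0.852 CPM.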

How the results depend on the processing

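No clock gene passed between hosts under any of the 17 alternatives. The log2 fold change kept its sign in all 17 for ARNTL (-0.94 to -0.72), PER2 (-1.32 to -0.73) and CLOCK, in 16 for NR1D2, in 14 for PER1, CRY1, CRY2 and NR1D1, in 11 for DBP and in 10 for PER3. The activators' median ran from -0.60 to -0.44, and that of the repressor and output genes from -0.23 to -0.01. With the replicate block the repressor and output median was -0.02 and 0 genes passed; the block changed no clock gene's call. The number of all genes passing between hosts, 0, moved to 27 under DESeq2 with the replicate block, where 9 of 10 clock genes had no adjusted p, and to 32 with batch 4 left out and the block. In the 4-batch test 6 to 8 clock genes passed, and with no filter on low counts 15434 genes did in place of 9137. Among batches 1 to 3 the 438 genes became 41 with no host term and 270 by DESeq2's likelihood ratio test. Leaving out 1 library at a time gave 236 (without B16A of batch 1) to 1615 (without B16A of batch 2), and 0 to 1 clock genes. The cause was not tested, except that fewer samples enter when libraries are left out. Depth limits the weakest values most: PER2 rests on 38 to 130 reads in batches 1 to 3. The smallest detectable difference was not measured.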
